A study of Bos taurus with 12 samples.

Results

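The ADAMTS proteases described here are 10 of the 33714 mRNAs in the expression table of bovine intramuscular preadipocytes, taken by gene name as a family list of ADAMTS1, ADAMTS2, ADAMTS4, ADAMTS5, ADAMTS6, ADAMTS7, ADAMTS9, ADAMTS10, ADAMTS12 and ADAMTS15. They are 10 of the 19 ADAMTS protease genes that the table names. The study followed the mRNA, lncRNA, circRNA and miRNA of preadipocytes isolated from a back muscle (longissimus dorsi) of newborn Qinchuan cattle through adipogenic differentiation. Cells were collected at 0 d, 3 d, 6 d and 9 d, with 3 libraries per day and 12 in all. At 90% confluence, medium with 15% serum was given 0.5 mM IBMX (a phosphodiesterase inhibitor), dexamethasone (a glucocorticoid) and 5 µg/mL insulin, and after 48 h it was replaced by medium with the same serum and insulin alone. These doses are those of the labels, and the concentrations of dexamethasone and insulin in the study's methods both differ from them, so no dexamethasone dose is given here. The study describes the cells of all 4 days as 1 batch. The 0 d libraries are the start of this course, the 3 d libraries were taken after IBMX and dexamethasone had been withdrawn, and the 6 d and 9 d libraries were taken under insulin. The 3 libraries of a day are given as biological replicates, without saying whether they came from different animals, so the p-values below measure the spread between these libraries.

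ADAMTS proteases are secreted zinc metalloproteinases with thrombospondin type repeats, made with a prodomain that furin-type convertases remove, and they cut proteins of the extracellular matrix. ADAMTS1, ADAMTS4, ADAMTS5, ADAMTS9 and ADAMTS15 cut the hyalectans, large proteoglycans such as aggrecan and versican that bind hyaluronan. ADAMTS2 trims the amino end of fibrillar procollagens, ADAMTS7 and ADAMTS12 are known for cutting cartilage oligomeric matrix protein, and ADAMTS6 and ADAMTS10 act on fibrillin microfibrils.

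The libraries were first compared with markers of the labelled cells. Of 8 preadipocyte and fibroblast markers, 6 had a mean of at least 1 FPKM (fragments scaled by transcript length and by the mapped reads of the library) at every day, led by COL3A1, while CD34 and DLK1 were below 1 at all 4 days. By the thresholds given below, the 7 tested gave 3 higher and 3 lower at 3 d, 2 higher and 2 lower at 6 d, and 1 higher and 1 lower at 9 d. Over all mRNAs, for this and the other marker lists, 8.06% were called higher and 15.2% lower at 3 d. The shares were 3.39% and 7.97% at 6 d, and 3.41% and 7.47% at 9 d. PDGFRA (log2 fold change 2.54), THY1 (1.85) and LUM (1.56) were the 3 called higher at 3 d. CD34 (-1.85), COL1A1 (-1.68) and PDGFRB (-1.38) were the 3 called lower. CD34 was scarce, with a mean of 0.63 FPKM at 0 d and 0.1 at 3 d. Its call and that of PDGFRB were not followed over the alternatives described below. The mean of PDGFRA was 159.6 at 0 d, 929.5 at 3 d and 162 at 6 d, and that of PDGFRB was 586, 226 and 212. The part of such cells in the changes of the members was not tested. Of 10 adipocyte markers, 8 were in the table, and their summed level was 10.3 to 11.1 FPKM at 0 d and 98.4 to 109 at 3 d, then 39.1 to 40.8 at 6 d and 32.9 to 41.5 at 9 d. FABP4, a fatty acid carrier, made most of the sum at 3 d with a mean of 91.1, and LEP (leptin) was the most abundant at 9 d, where its mean was 20.5 after 2.34 at 0 d and 0.07 at 3 d. LPL, a lipase, had day means of 3.03 to 10.6, and PLIN4, a lipid droplet protein, went from 0.173 at 0 d to 1.303 at 9 d. ADIPOQ (adiponectin) rose from a mean of 0.0233 at 0 d to 0.723 at 3 d and 0.603 at 9 d, and CEBPA had a mean of at most 0.22. By the same thresholds, the 8 adipocyte markers gave 5 higher and 1 lower at 3 d, 5 higher and 0 lower at 6 d, and 5 higher and 0 lower at 9 d. Of all mRNAs, 8.06%, 3.39% and 3.41% were called higher at these days, and 15.2%, 7.97% and 7.47% lower. Among the calls higher were PCK1 at 3 d (mean 0.0467 FPKM at 0 d and 0.23 at 3 d) and CIDEC at 6 d and 9 d. The mean of CIDEC was 0.0833 at 0 d, 0.307 at 6 d and 0.407 at 9 d. These scarce mRNAs, and LPL called at 3 d, were not followed over the alternatives. FABP4 was called higher at all 3 days under every alternative tried. The calls of PLIN4 and ADIPOQ at all 3 days ended with a pseudocount of 1. The call of LEP at 6 d ended with one of 0.01 (log2 fold change 1.73, against 1.69). That of ADIPOQ at 6 d also ended with the 6 libraries compared alone and without 0 d replicate 1 (log2 fold change 2.14), 0 d replicate 2 (2.26), 0 d replicate 3 (2.26) or 6 d replicate 1 (1.42, against 2.22 with all libraries), and its adjusted p was 0.0047 to 0.118 over its 12 alternatives. At 9 d it ended without 0 d replicate 1 (2.26), 9 d replicate 1 (2.07) or 9 d replicate 2 (2.05, against 2.34), and its adjusted p was 0.00362 to 0.118 over its 12 alternatives. PPARG and PLIN1 were not analysed here. The means of ADIPOQ, CEBPA, CIDEC and PCK1 stayed under 1 FPKM at every day, and the samples are called cultures below. Of 9 skeletal muscle markers, 8 were in the table and all of these had a mean of at least 1 FPKM at every day, with a summed level of 826 to 941 at 0 d and 271 to 299.6 at 3 d, then 379 to 421 at 6 d and 293 to 328 at 9 d. Against 0 d the 8 gave 0 higher and 6 lower at 3 d, 0 higher and 6 lower at 6 d, and 0 higher and 7 lower at 9 d. Of all mRNAs, 15.2%, 7.97% and 7.47% were called lower at these days. DES was the most abundant of them at every day, and MYOD1, a myoblast transcription factor, had a mean of 268 FPKM at 0 d. The 7 endothelial markers summed to at most 3.72 FPKM in a library, with VWF the most abundant and PECAM1, KDR and TIE1 under 0.1 at every day. The 7 blood and immune markers summed to 1.12 to 1.35 at 0 d and 3.44 to 3.74 at 3 d, then 1.85 to 1.91 at 6 d and 2.23 to 3.38 at 9 d, with CD14 the most abundant and PTPRC and HBB at 0 in all 12 libraries. Of the 3 tested, CD14 (log2 fold change 1.71) and CSF1R (1.23) were called higher at 3 d against 0 d, and CD14 also at 9 d (1.59), a call that ended with a pseudocount of 1 (0.94). The call of CSF1R ended without 0 d replicate 3 (1.00) and with a pseudocount of 1 (0.50). The part of such cells in the members' rise at 3 d was not tested.

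The ADAMTS mRNAs differed from 0 d most often at 3 d. ADAMTS4, ADAMTS15, ADAMTS9, ADAMTS1 and ADAMTS5 rose at 3 d, and ADAMTS6, ADAMTS10 and ADAMTS12 fell. A gene was called when its log2 fold change on log2(FPKM + 0.1) was beyond 1 in either direction and its limma p, adjusted over the 15402 mRNAs tested, was under 0.05. All 10 members passed the filter, a mean of at least 0.1 FPKM over the 12 libraries. At 3 d against 0 d, 8 of the 10 members were called, 5 higher and 3 lower, while 23.3% of all mRNAs tested were called, 8.06% higher and 15.2% lower. At 6 d against 0 d, 6 of the 10 were called, 3 higher and 3 lower, beside 11.4% of all mRNAs, 3.39% higher and 7.97% lower. At 9 d against 0 d, 2 of the 10 were called, ADAMTS4 higher and ADAMTS1 lower, beside 10.9% of all mRNAs, 3.41% higher and 7.47% lower, and nothing about the family is read from a count of 2. These 3 comparisons share the 0 d libraries. Between 3 d and 6 d, 8 of the 10 were called, 3 higher and 5 lower at 6 d, beside 19.1% of all mRNAs, 9.85% higher and 9.23% lower. Between 6 d and 9 d, 2 of the 10 were called, ADAMTS6 higher and ADAMTS9 lower at 9 d, beside 4.43% of all mRNAs, 2.55% higher and 1.89% lower. The median log2 fold change of the 10 members against 0 d was 0.94 at 3 d, 0.05 at 6 d and 0.02 at 9 d, and the median over all mRNAs tested was -0.06, -0.15 and -0.19. The 5 other ADAMTS proteases tested, which are not on the list, had medians of -2.23, -0.38 and -1.07. Since these are bulk cultures, fewer cells of a type and less RNA per cell cannot be told apart in any of these values.

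**Figure D1:**
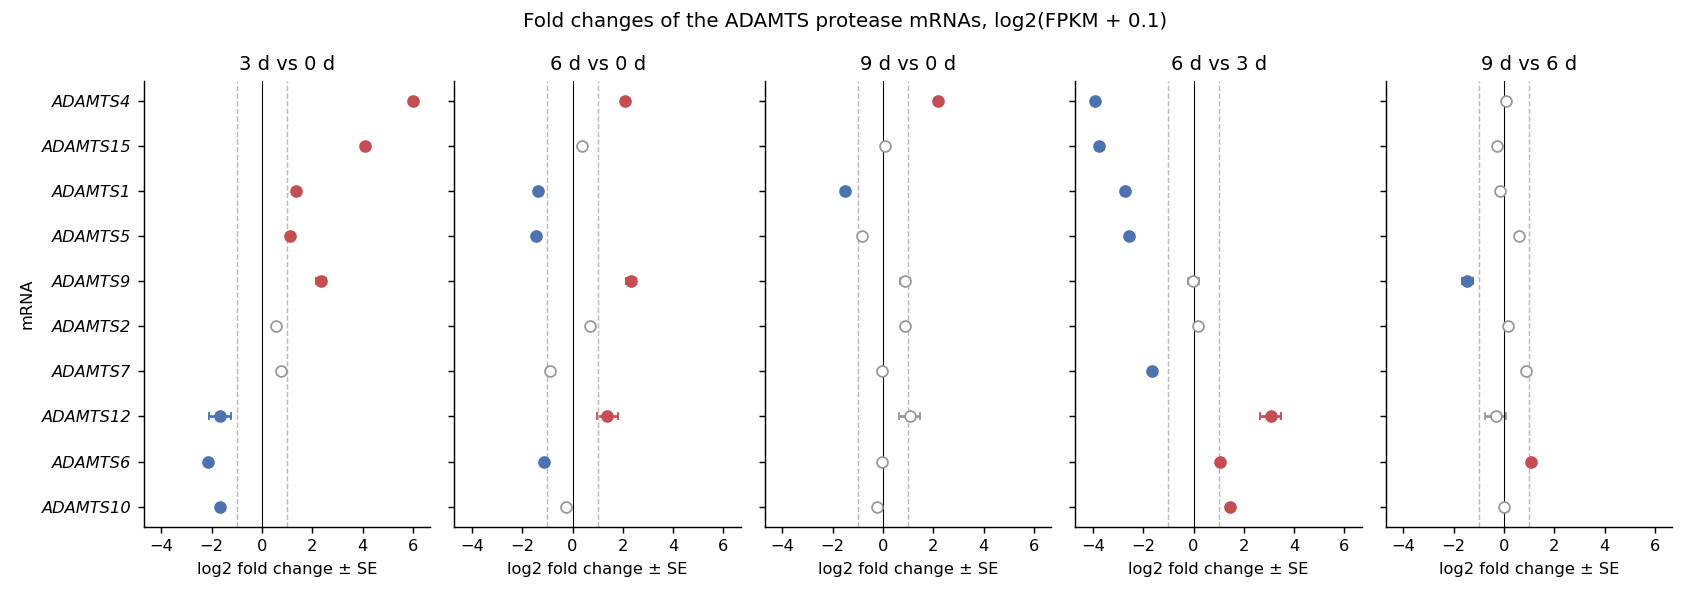
Log2 fold changes of the 10 ADAMTS mRNAs in the 5 comparisons of days (x axis, log2 of FPKM + 0.1, bars are the SE from limma and mostly lie within the symbols; dashed lines at -1 and 1). Red and blue filled symbols were called higher and lower and open symbols were not called; at 3 d against 0 d the values run from -2.16 for ADAMTS6 to 6.00 for ADAMTS4.

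ADAMTS4, the aggrecanase first found in cartilage, changed most of the 10 in the comparison of 3 d with 0 d. Its level was 12.2, 12.03 and 15.8 FPKM at 0 d and 759.8, 934 and 872 at 3 d. The 6 d libraries had 54.8, 62.4 and 52.8 and those of 9 d 58.0, 64.7 and 57.5. All 3 libraries of 3 d stood far above the other 9, the libraries of 6 d and 9 d overlapped with each other, and every one of these lay above every 0 d library. The log2 fold change against 0 d was 6.00 ± 0.12 (SE, adjusted p = 1.68e-10) at 3 d, a 63.9-fold difference on this scale, 2.08 ± 0.12 (adjusted p = 6.98e-07) at 6 d and 2.17 ± 0.12 (adjusted p = 7.24e-07) at 9 d. From 3 d to 6 d it fell 15.1-fold (log2 fold change -3.91 ± 0.12, adjusted p = 3.94e-09). ADAMTS4 thus had a higher level at 9 d than at 0 d after most of the rise had gone. Between 6 d and 9 d its log2 fold change was 0.09 ± 0.12 (adjusted p = 0.692), within the spread of the libraries.

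ADAMTS15, a hyalectanase expressed in muscle, was the member with the second highest rise and was scarce outside 3 d. Its level was 1.81, 1.59 and 1.91 FPKM at 0 d and 30.2, 31.9 and 33.9 at 3 d. It came to 2.41, 2.12 and 2.35 at 6 d and 2.12, 1.82 and 1.69 at 9 d. The 3 d libraries stood far above the other 9, and the libraries of 9 d overlapped with those of 0 d and of 6 d. At 3 d the log2 fold change was 4.11 ± 0.11 (adjusted p = 7.88e-10), a 17.2-fold rise, and from 3 d to 6 d it was -3.75 ± 0.11 (adjusted p = 2.39e-09). The 6 d libraries lay just above those of 0 d, by 0.36 ± 0.11 (adjusted p = 0.0243), under the fold threshold, and at 9 d the difference from 0 d was 0.08 ± 0.11 (adjusted p = 0.612).

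**Figure D2:**
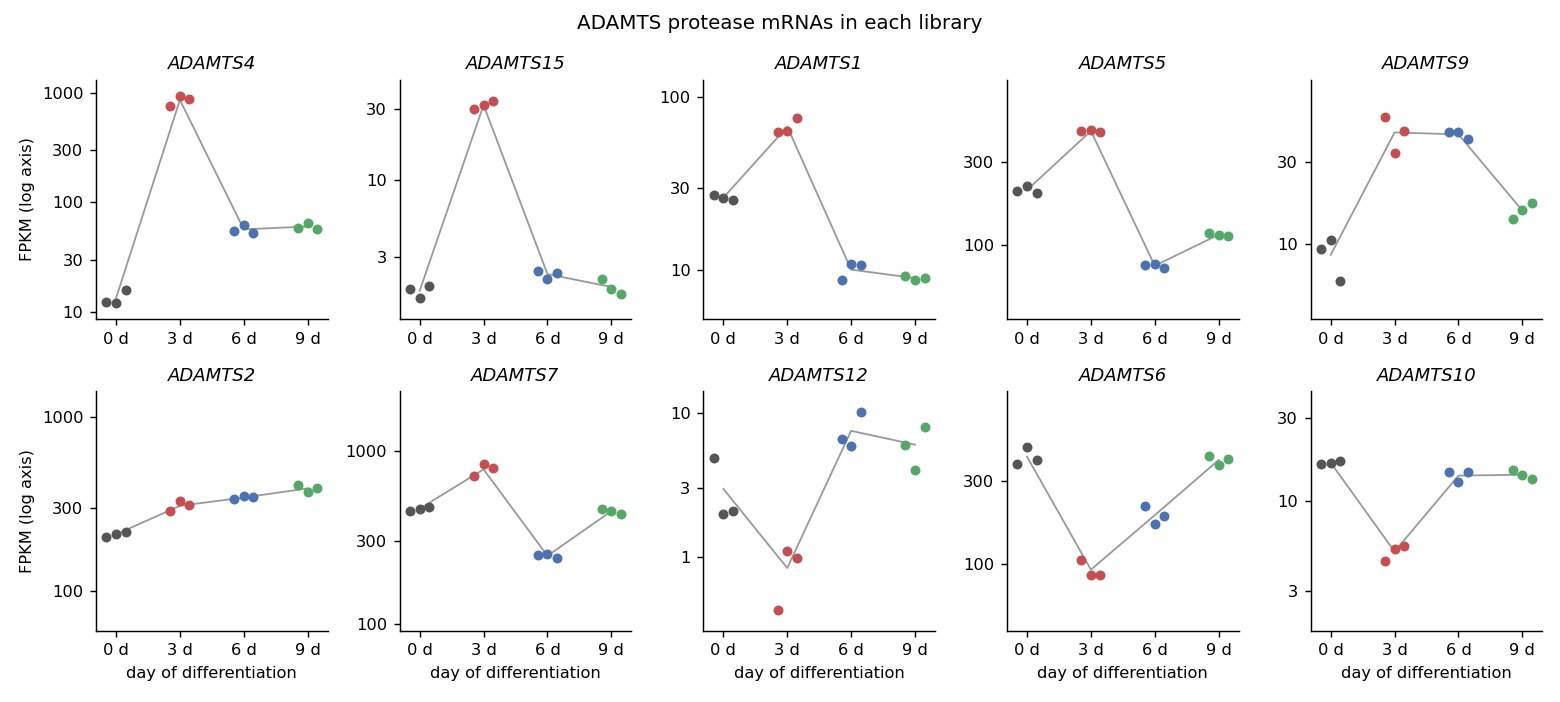
FPKM of each ADAMTS mRNA in each of the 12 libraries (log axis with a range of its own in each panel; points are libraries, lines join the means of the 3 libraries of a day). ADAMTS4, ADAMTS15, ADAMTS1, ADAMTS5 and ADAMTS7 peak at 3 d, ADAMTS6, ADAMTS10 and ADAMTS12 are lowest at 3 d, ADAMTS9 is high at 3 d and 6 d, and the day means of ADAMTS2 increase from 211 at 0 d to 388 at 9 d.

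ADAMTS1 and ADAMTS5 went up at 3 d and then below their starting level. ADAMTS1, which also cuts nidogens and thrombospondins, was at 27.1, 26.3 and 25.4 FPKM at 0 d and 63.0, 64.1 and 75.3 at 3 d. Later levels were 8.76, 10.9 and 10.7 at 6 d and 9.24, 8.87 and 9.01 at 9 d. Its 3 d libraries were the highest, the 0 d libraries lay between, and the libraries of 6 d and 9 d were the lowest and overlapped with each other. The log2 fold change of ADAMTS1 against 0 d was 1.35 ± 0.10 (adjusted p = 1.12e-06) at 3 d, -1.37 ± 0.10 (adjusted p = 2.68e-06) at 6 d and -1.53 ± 0.10 (adjusted p = 1.62e-06) at 9 d. From 3 d to 6 d it fell 6.62-fold (log2 fold change -2.73 ± 0.10, adjusted p = 1.05e-08). ADAMTS5, the other main aggrecanase, was more abundant, with 206, 219 and 199 FPKM at 0 d and 457, 458 and 448 at 3 d. At 6 d it was 77.0, 77.8 and 73.3 and at 9 d 117, 114 and 113. None of the 4 days overlapped for ADAMTS5, and its order was 3 d, 0 d, 9 d and 6 d from high to low. It rose 2.19-fold at 3 d (log2 fold change 1.13 ± 0.049, adjusted p = 2.84e-08) and was -1.45 ± 0.049 against 0 d at 6 d (adjusted p = 2.42e-08). At 9 d its log2 fold change of -0.85 ± 0.049 (adjusted p = 8.46e-07) was past the p threshold and not the fold threshold, as was the difference of 0.59 ± 0.049 (adjusted p = 2.34e-05) between 6 d and 9 d. ADAMTS5 and ADAMTS1 are neighbouring genes in the ARS-UCD2.0 annotation.

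ADAMTS9, a hyalectanase that also serves in secretion from the cell, was high at both 3 d and 6 d. Its level was 9.39, 10.6 and 6.12 FPKM at 0 d and 54.0, 33.7 and 45.0 at 3 d. The 6 d libraries had 44.6, 44.5 and 40.4 and those of 9 d 14.0, 15.7 and 17.3. The 3 d and 6 d libraries overlapped and lay above all others, and the 9 d libraries lay between these and 0 d. The log2 fold change against 0 d was 2.34 ± 0.21 (adjusted p = 7.2e-06) at 3 d and 2.33 ± 0.21 (adjusted p = 1.79e-05) at 6 d. ADAMTS9 fell 2.75-fold from 6 d to 9 d (log2 fold change -1.46 ± 0.21, adjusted p = 0.000978). At 9 d the remaining difference from 0 d, 0.87 ± 0.21 (adjusted p = 0.00929), was under the fold threshold, and without 0 d replicate 2 it was 1.03 (adjusted p = 0.00675, 0.0027 to 0.0341 over its 13 alternatives) and called.

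ADAMTS2, the procollagen N-proteinase, was abundant at all days and was not called in any of the 5 comparisons. Its level was 204, 211 and 217 FPKM at 0 d and 287, 327 and 310.4 at 3 d. It came to 337, 350.1 and 344 at 6 d and 404, 371 and 389 at 9 d. Every day lay above the day before it with no overlap. Against 0 d the log2 fold change was 0.55 ± 0.057 (adjusted p = 2e-05) at 3 d, 0.71 ± 0.057 (adjusted p = 7.47e-06) at 6 d and 0.88 ± 0.057 (adjusted p = 1.96e-06) at 9 d, past the p threshold at each day and under the fold threshold.

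ADAMTS7 and ADAMTS12, the pair that cuts cartilage oligomeric matrix protein, differed in level widely and moved in opposite directions at 3 d and at 6 d. ADAMTS7 was at 449, 463 and 476 FPKM at 0 d and 717, 832 and 789.7 at 3 d. Later levels were 249, 252 and 241 at 6 d and 461, 452 and 431 at 9 d. The 3 d libraries were the highest, the 6 d libraries the lowest, and the libraries of 0 d and 9 d overlapped. Against 0 d its log2 fold change was 0.75 ± 0.058 (adjusted p = 2.17e-06) at 3 d and -0.90 ± 0.058 (adjusted p = 1.48e-06) at 6 d, both under the fold threshold, while the drop from 3 d to 6 d was called (-1.65 ± 0.058, adjusted p = 1.04e-08). ADAMTS12 was scarce, at 4.82, 1.98 and 2.08 FPKM at 0 d and 0.43, 1.1 and 0.98 at 3 d. At 6 d it was 6.55, 5.86 and 10.0 and at 9 d 5.97, 4.01 and 8.01. Its 3 d libraries were the lowest, and its spread within a day was the widest of the 10, with 0 d replicate 1 well above the other 2 libraries of that day. ADAMTS12 fell at 3 d (log2 fold change -1.67 ± 0.43, adjusted p = 0.0076, and -1.06 with a pseudocount of 1) and rose 8.36-fold from 3 d to 6 d (3.06 ± 0.43, adjusted p = 0.000197). Its call at 6 d against 0 d (1.39 ± 0.43, adjusted p = 0.0292) rests on few libraries. It ended without 0 d replicate 2 (1.17, adjusted p = 0.0993), 0 d replicate 3 (1.21, 0.0922), 6 d replicate 1 (1.46, 0.0555) or 6 d replicate 3 (1.16, 0.101). The adjusted p of this difference was 0.00921 to 0.101 over its 13 alternatives. At 9 d its libraries overlapped with those of 0 d, and the log2 fold change of 1.06 ± 0.43 did not pass (adjusted p = 0.0794), though without 0 d replicate 1 it was 1.46 (adjusted p = 0.0225, 0.0225 to 0.224 over its 13 alternatives).

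ADAMTS6 and ADAMTS10, the related pair that acts on fibrillin microfibrils, were both lowest at 3 d. ADAMTS6 was at 379, 473 and 396 FPKM at 0 d and 105, 86.3 and 86.8 at 3 d. The 6 d libraries had 216, 170.4 and 188 and those of 9 d 419, 373 and 402. The 3 d libraries lay below all others, the 6 d libraries lay between, and the 9 d libraries overlapped with 0 d. It fell 4.48-fold at 3 d (log2 fold change -2.16 ± 0.12, adjusted p = 1.55e-07), was still lower at 6 d (-1.12 ± 0.12, adjusted p = 4.57e-05), and at 9 d differed from 0 d by -0.06 ± 0.12 (adjusted p = 0.737). The steps from 3 d to 6 d (1.04 ± 0.12, adjusted p = 4.41e-05) and from 6 d to 9 d (1.06 ± 0.12, adjusted p = 0.000166) were just past the fold threshold. The call of the first step ended without 3 d replicate 2 (0.99), 3 d replicate 3 (1.00) or 6 d replicate 1 (0.95), and that of the next without 6 d replicate 2 (0.98), which left ADAMTS9 as the 1 member called between 6 d and 9 d. ADAMTS10 was at 16.3, 16.4 and 16.9 FPKM at 0 d and 4.48, 5.27 and 5.49 at 3 d. It came to 14.5, 12.7 and 14.5 at 6 d and 15.0, 14.0 and 13.3 at 9 d. Its 3 d libraries lay well below the other 9, and the libraries of 6 d and 9 d overlapped. ADAMTS10 fell 3.22-fold at 3 d (log2 fold change -1.69 ± 0.091, adjusted p = 1.49e-07) and rose from 3 d to 6 d (1.44 ± 0.091, adjusted p = 6.69e-07). Its difference from 0 d was -0.25 ± 0.091 (adjusted p = 0.0591) at 6 d and -0.23 ± 0.091 (adjusted p = 0.0732) at 9 d, and neither passed.

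The count at 9 d depends on how the libraries are scaled. Rescaling FPKM by the median ratio to a common reference moved the median log2 fold change over all mRNAs by 0.16 at 6 d and 0.19 at 9 d. COL3A1, the most abundant mRNA, made 8.08% ± 0.190 (SD, n = 3) of the summed FPKM at 0 d and 10.1% ± 0.192 at 3 d, then 7.36% ± 0.320 at 6 d and 12.6% ± 0.248 at 9 d, and its part in that shift was not tested. Its mean of 105843 FPKM at 0 d is unusually large for this unit, and the scale of such values could not be checked against reads. On the rescaled values 5 of the 10 members were called at 9 d against 0 d, 4 of them higher, beside 9.54% of all mRNAs, 4.45% higher. ADAMTS2 (1.09), ADAMTS9 (1.08) and ADAMTS12 (1.26) joined ADAMTS4 (2.38) and ADAMTS1 (-1.32), as log2 fold changes. At 6 d against 0 d, ADAMTS6 was -0.95 on the rescaled values and no longer called, and at 3 d against 0 d the same count of 8 was called.

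In level, ADAMTS7, ADAMTS6, ADAMTS2 and ADAMTS5 made most of the family's mRNA at 0 d. The summed level of the 10 members was 1367 ± 63.8 FPKM (SD, n = 3) at 0 d and 2641 ± 149.9 at 3 d, then 992 ± 16.5 at 6 d and 1456 ± 45.3 at 9 d, with no test made on this sum. The 3 d libraries were the highest and the 6 d libraries the lowest, without overlap with another day. ADAMTS4 made 0.978% ± 0.167 of the sum (SD, n = 3) at 0 d and 32.3% ± 1.54 at 3 d, then 5.71% ± 0.516 at 6 d and 4.13% ± 0.376 at 9 d. ADAMTS6 went the other way, with 30.4% ± 2.24 at 0 d and 3.54% ± 0.622 at 3 d, then 19.3% ± 2.06 at 6 d and 27.3% ± 0.901 at 9 d. ADAMTS7 stayed between 24.9% and 33.9% of the sum as a mean of each day, and ADAMTS2 made the most at 6 d, 34.7% ± 1.11. So ADAMTS4 was the member with the highest mean level at 3 d, ADAMTS2 at 6 d, and ADAMTS7 at 0 d and 9 d, though in 0 d replicate 2 ADAMTS6 (473 FPKM) was above ADAMTS7 (463 FPKM).

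**Figure D3:**
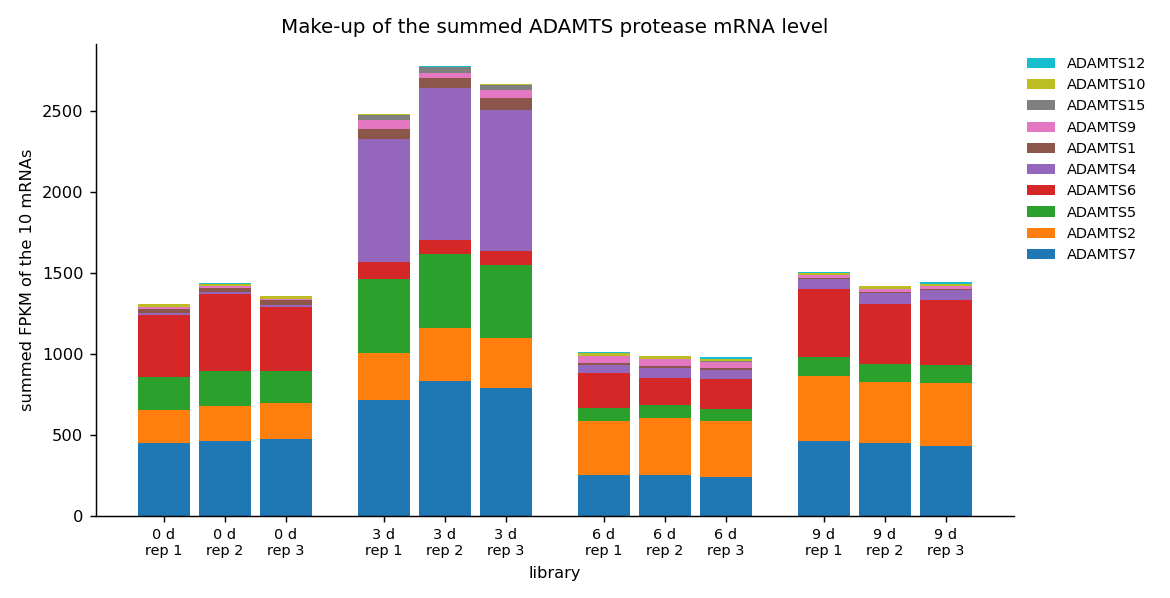
Summed FPKM of the 10 ADAMTS mRNAs in each of the 12 libraries (bars from 0, split by gene). The bars of 3 d reach from 2479 to 2775 FPKM, above those of every other day, and the ADAMTS4 segment is wide at 3 d, while the ADAMTS6 segment is narrowest there.

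The members were also compared with each other and with other mRNAs over the 12 libraries, on log2(FPKM + 0.1), as a description only, since the libraries fall into 4 days of 3 and share the course of the days. ADAMTS1 and ADAMTS5 ran close together (Pearson r = 0.961 over 12 libraries), as did ADAMTS5 and ADAMTS7 (r = 0.937 over 12 libraries) and ADAMTS4 and ADAMTS15 (r = 0.931 over 12 libraries). ADAMTS10 and ADAMTS15 were near mirror images (r = -0.979 over 12 libraries). Among the 10216 mRNAs with a mean of at least 1 FPKM that were compared, the most like ADAMTS4 were RNF145 (r = 0.996), RIPOR3 (r = 0.995) and PLIN2, a lipid droplet coat protein (r = 0.994). The most like ADAMTS15 were RTN3 (r = 0.998), RTTN (r = 0.995) and NDRG2 (r = 0.994). For ADAMTS9 they were VMP1, listed together with MIR21 (r = 0.983), THRB, a thyroid hormone receptor (r = 0.973), and SFRP5, a secreted Wnt-binding protein (r = 0.972). For ADAMTS6 they were TBC1D2 (r = 0.992), FAP, a fibroblast surface protease (r = 0.988), and TRPC4, a cation channel (r = 0.986).

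Of the 6 smooth muscle and pericyte markers, 4 (ACTA2, DES, NOTCH3 and CNN1) were, like ADAMTS6, ADAMTS10 and ADAMTS12, lowest at 3 d. The 6, of which skeletal muscle also expresses DES, summed to 2095 to 2275 FPKM at 0 d and 214 to 237 at 3 d, then 1913 to 2041 at 6 d and 808 to 884 at 9 d. ACTA2 was the most abundant of them at 0 d, 6 d and 9 d, and its mean was 1697 at 0 d and 26.8 at 3 d, then 1583 at 6 d and 598 at 9 d, while RGS5, a pericyte marker, had a mean of at most 0.107. Against 0 d the 5 tested gave 0 higher and 4 lower at 3 d, 1 higher and 1 lower at 6 d, and 0 higher and 2 lower at 9 d, beside 15.2% of all mRNAs called lower at 3 d, 7.97% at 6 d and 7.47% at 9 d. ACTA2, DES, NOTCH3 and CNN1 were the 4 called lower at 3 d. MYH11 went the other way, from a mean of 23.3 to 57.2 FPKM with no overlap, and was not called (1.298 ± 0.64, adjusted p = 0.118). At 6 d against 0 d CNN1 was called higher (2.004 ± 0.16) and NOTCH3 lower (-1.36 ± 0.069), and ACTA2 was not called (-0.10 ± 0.068), beside ADAMTS12 called higher and ADAMTS6 lower. From 6 d to 9 d ACTA2 (-1.41 ± 0.068) and CNN1 (-1.85 ± 0.16) were called lower and NOTCH3 (-0.18 ± 0.069) was not called. In that comparison ADAMTS6 was called higher (1.06 ± 0.12), and ADAMTS10 (0.02 ± 0.091) and ADAMTS12 (-0.33 ± 0.43) were not called. The part of such cells, or of the muscle markers, in the changes of ADAMTS6, ADAMTS10 and ADAMTS12 was not tested.

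Of the 9 other ADAMTS protease genes in the table, 5 passed the filter. ADAMTS8, ADAMTS13, ADAMTS18 and ADAMTS19 were under it, with no library above 0.07 FPKM. Against 0 d the 5 tested gave 1 higher and 3 lower at 3 d, 0 higher and 1 lower at 6 d, and 1 higher and 3 lower at 9 d, with the medians given above. Of all mRNAs, 8.06% were called higher and 15.2% lower at 3 d. At 6 d these shares were 3.39% and 7.97%, and at 9 d 3.41% and 7.47%. ADAMTS3, a procollagen N-proteinase like ADAMTS2, was at 2.13, 2.14 and 1.71 FPKM at 0 d and 13.2, 12.4 and 12.3 at 3 d, then 2.84, 3.36 and 3.2 at 6 d and 4.88, 4.63 and 4.82 at 9 d, and rose at 3 d (2.61 ± 0.10, adjusted p = 1.23e-08) and 9 d (1.23 ± 0.10, adjusted p = 9.46e-06). All its 3 d libraries lay above the other days. ADAMTS14, the last of the N-proteinases, was scarce, at 0.71, 0.68 and 0.67 at 0 d and 0, 0.04 and 0.03 at 3 d, and fell at 3 d (-2.69 ± 0.14, adjusted p = 1e-07), but with a pseudocount of 1 its log2 fold change was -0.72 and not called. ADAMTS16 was at 9.84, 9.82 and 9.58 at 0 d and did not exceed 1.63 in any later library. It fell at 3 d (-2.76 ± 0.17, adjusted p = 3.99e-07), 6 d (-2.69 ± 0.17, adjusted p = 1.32e-06) and 9 d (-2.84 ± 0.17, adjusted p = 1.2e-06). ADAMTS20, related to ADAMTS9, had means of 3.18, 0.6, 2.69 and 1.14 FPKM at the 4 days and fell at 3 d (-2.23 ± 0.11, adjusted p = 6.73e-08) and 9 d (-1.40 ± 0.11, adjusted p = 6.21e-06). ADAMTS17 fell at 9 d (-1.07 ± 0.16, adjusted p = 0.000494), from a mean of 1.59 to 0.707 FPKM. That call ended without 0 d replicate 2 (-0.99), without 9 d replicate 2 (-0.93) and on rescaled values (-0.88). With a pseudocount of 1, the 9 d calls of ADAMTS17 (-0.60), ADAMTS3 (0.95) and ADAMTS20 (-0.97) ended.

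The ADAMTS-like genes encode related proteins without the protease domain, several of which bind fibrillin microfibrils, and of 7 with papilin 6 were tested, giving 1 higher and 2 lower at 3 d, 1 higher and 2 lower at 6 d, and 0 higher and 1 lower at 9 d, beside 23.3%, 11.4% and 10.9% of all mRNAs called. Their medians against 0 d were 0.03, -0.42 and -0.50. ADAMTSL1 was the most abundant, at 401, 416 and 409.9 FPKM at 0 d and 144, 183 and 174 at 3 d, then 113, 139.5 and 133 at 6 d and 249, 207 and 261 at 9 d, and it fell at 3 d (-1.30 ± 0.12, adjusted p = 6.58e-06) and 6 d (-1.67 ± 0.12, adjusted p = 2.6e-06). ADAMTSL4 was at 26.4, 28.1 and 27.7 at 0 d and 157, 162 and 176 at 3 d. Later levels were 65.8, 71.6 and 64.7 at 6 d and 47.3, 44.1 and 46.8 at 9 d. Its 4 days did not overlap, and it rose at 3 d (2.58 ± 0.064, adjusted p = 6.58e-10) and 6 d (1.29 ± 0.064, adjusted p = 2.47e-07). ADAMTSL5 had the opposite course, with 49.2, 51.0 and 50.6 at 0 d and 5.47, 4.72 and 5 at 3 d, then 9.65, 8.17 and 9.94 at 6 d and 29.5, 24.9 and 23.6 at 9 d, and fell at 3 d (-3.29 ± 0.10, adjusted p = 3.18e-09) and 6 d (-2.43 ± 0.10, adjusted p = 9.64e-08). Its libraries of the 4 days did not overlap either. ADAMTSL3 fell at 9 d (-1.41 ± 0.19, adjusted p = 0.000246), from a mean of 36.5 to 13.9 FPKM, and THSD4 stayed between 6.73 and 9.58 FPKM in all 12 libraries with no call. PAPLN (papilin) was not called, and its later libraries of a day differed widely. It was at 0.24, 0.29 and 0.3 FPKM at 0 d and 1.44, 0.08 and 1.44 at 3 d. The libraries of 6 d gave 1.92, 1.77 and 0.12 and those of 9 d gave 2.01, 1.83 and 0.11, so a single library of each later day lay below all those of 0 d. ADAMTSL2 was under the filter, at most 0.1 FPKM in a library.

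**Figure D4:**
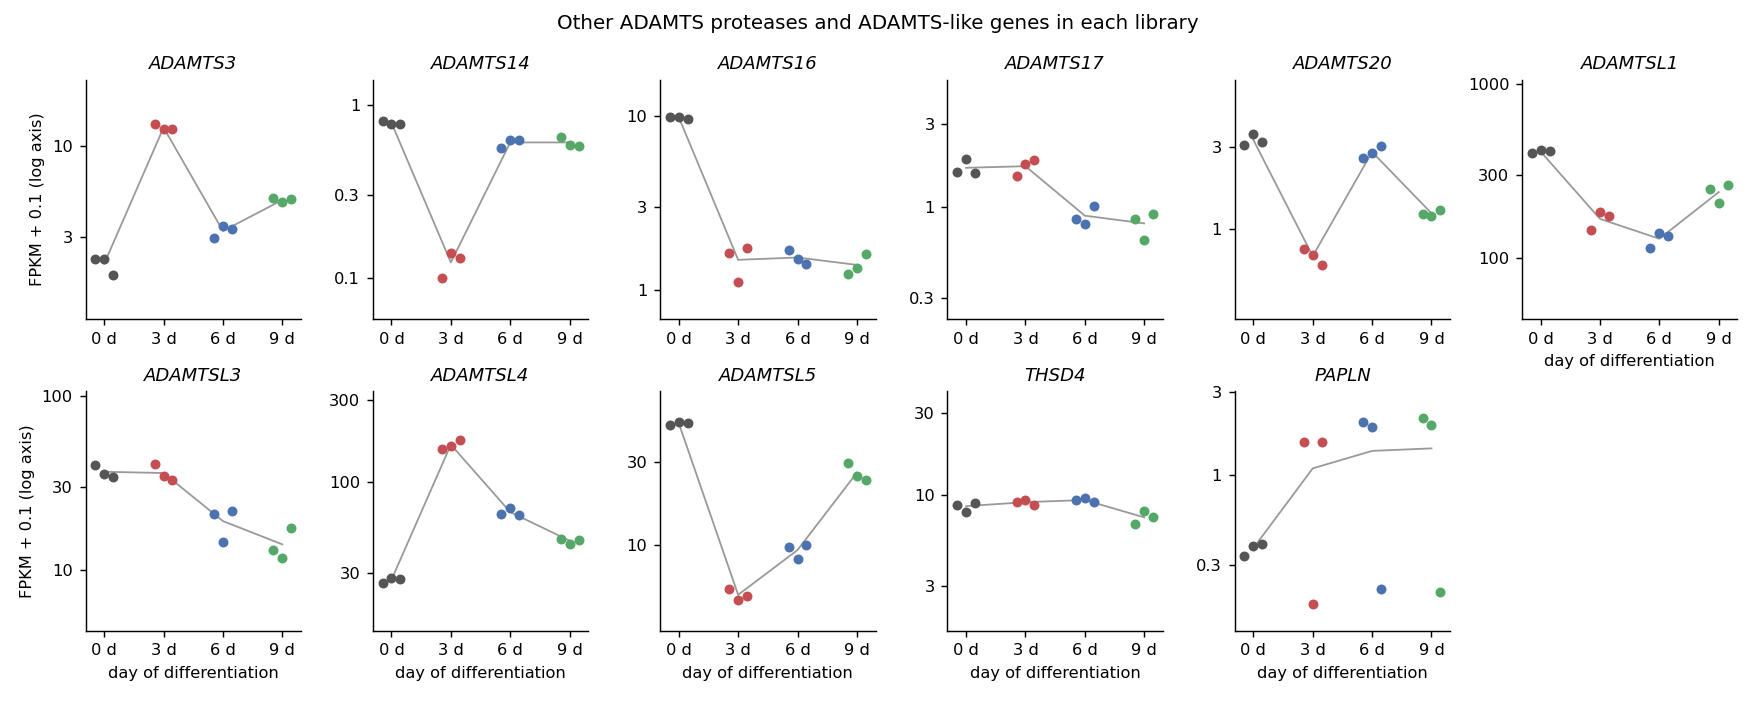
FPKM + 0.1 in each library for the 5 other ADAMTS proteases, the 4 ADAMTS-like genes, THSD4 and PAPLN that passed the filter (log axis with a range of its own in each panel; points are libraries, lines join means of the 3 libraries of a day). ADAMTS3 and ADAMTSL4 are highest at 3 d, ADAMTS14, ADAMTS20 and ADAMTSL5 are lowest there, ADAMTS16 stays low after 0 d, and in PAPLN a single library of each later day stands apart.

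Of 10 genes for hyalectans, their link proteins, hyaluronan synthases and the hyaluronan receptor, 5 were tested, with 1 higher and 3 lower at 3 d, 0 higher and 1 lower at 6 d, and 0 higher and 2 lower at 9 d. Over all mRNAs 8.06% were called higher and 15.2% lower at 3 d. At 6 d these shares were 3.39% and 7.97%, and at 9 d 3.41% and 7.47%. The medians of the 5 genes were -2.77, -0.70 and -0.23, beside -0.06, -0.15 and -0.19 over all mRNAs. VCAN and HAS3 were not analysed here, and BCAN, NCAN and HAPLN1 were under the filter, so ACAN (aggrecan) is the 1 hyalectan among the 5. ACAN was at 6.01, 8.72 and 6.31 FPKM at 0 d and 0.37, 0.41 and 0 at 3 d, then 10.8, 13.8 and 14.7 at 6 d and 2.29, 2.83 and 2.09 at 9 d, so the 4 days did not overlap and 3 d was near 0. Its log2 fold change against 0 d was -4.61 ± 0.52 (adjusted p = 3.54e-05) at 3 d and -1.50 ± 0.52 (adjusted p = 0.0459) at 9 d. Without 3 d replicate 3, the library at 0, the value at 3 d was -3.84, and with pseudocounts of 1 and 0.01 it was -2.67 and -5.89, called each time. The call at 9 d ended when any 1 of the 6 libraries compared was left out (log2 fold change -1.62 to -1.33, adjusted p = 0.0755 to 0.127). It also ended on rescaled values (-1.29), with a pseudocount of 0.01 (-1.53) and with no filter (-1.50). The adjusted p of this difference was 0.000413 to 0.341 over its 13 alternatives. The hyaluronan receptor CD44 fell at 3 d (-3.08 ± 0.078, adjusted p = 7.04e-10), and so did the link protein HAPLN3 (-2.77 ± 0.13, adjusted p = 5.34e-08), whose mean went from 615 to 91.0 FPKM. HAS2, a hyaluronan synthase, rose at 3 d (2.45 ± 0.13, adjusted p = 1.5e-07), from a mean of 24.4 to 134 FPKM, as ADAMTS4 and ADAMTS15 did, and the synthase HAS1 was not called against 0 d. Of the 7 chondrocyte markers, which include ACAN, SOX9 and MATN3 also passed the filter. SOX9 had means of 2.67, 1.34, 0.41 and 2.88 FPKM at the 4 days and was called lower at 6 d (-2.46 ± 0.15, adjusted p = 1.16e-06), and MATN3 had a mean of at most 0.197 and no call. COL9A1 and SNORC were at 0 in all 12 libraries and COL2A1 and COL11A2 were under 0.1 at every day. The list summed to 8.6 to 11.7 FPKM at 0 d and 1.32 to 1.86 at 3 d, then 11.4 to 15.4 at 6 d and 5.12 to 5.76 at 9 d.

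Among 11 genes for the procollagens that ADAMTS2 and its relatives trim and for other procollagen processing, 6 were tested, with 0 higher and 3 lower at 3 d, 1 higher and 0 lower at 6 d, and 0 higher and 0 lower at 9 d, and medians of -0.70, 0.19 and 0.42. Over all mRNAs, for this list and those below, 8.06% were called higher and 15.2% lower at 3 d. The shares were 3.39% and 7.97% at 6 d, and 3.41% and 7.47% at 9 d. PCOLCE and BMP1 were not analysed here. COL1A1 had means of 3018, 941, 3080.0 and 3393 FPKM at the 4 days and fell at 3 d (-1.68 ± 0.059, adjusted p = 6.49e-09), as did COL1A2 (-1.18 ± 0.072, adjusted p = 3.56e-07) and the enhancer protein gene PCOLCE2 (-1.65 ± 0.10, adjusted p = 2.94e-07). COL5A1 rose at 6 d (1.21 ± 0.10, adjusted p = 8.54e-06). At 3 d COL5A1 (0.43 ± 0.10) and COL5A2 (-0.23 ± 0.075) were not called. COL3A1, the most abundant of the list, had means of 105843, 126606, 96303 and 170827 FPKM. Its log2 fold change against 0 d was 0.26 ± 0.042 at 3 d, -0.14 ± 0.042 at 6 d and 0.69 ± 0.042 at 9 d, with no call. ADAMTS2 itself was above its 0 d level at all 3 later days. Of the 9 genes of fibrillin microfibrils and their partners, where ADAMTS6 and ADAMTS10 act, all 9 were tested, with 1 higher and 6 lower at 3 d, 2 higher and 3 lower at 6 d, and 1 higher and 3 lower at 9 d, and medians of -1.68, -0.66 and -0.61. MFAP2 fell at 3 d (-2.59 ± 0.11, adjusted p = 2.53e-08), and LTBP4 fell most at 6 d (-2.28 ± 0.10, adjusted p = 1.26e-07). FBN2 had means of 2.88, 0.837, 2.36 and 0.447 FPKM and fell at 3 d (-1.68 ± 0.12, adjusted p = 1.26e-06) and 9 d (-2.45 ± 0.12, adjusted p = 3.3e-07). FBN1, the far more abundant fibrillin gene, had means of 4871, 4125, 3088 and 5306 FPKM and was not called. Its log2 fold change against 0 d was -0.24 ± 0.049 at 3 d, -0.66 ± 0.049 at 6 d and 0.12 ± 0.049 at 9 d. MFAP5 rose at all 3 days, most at 6 d (2.53 ± 0.074, adjusted p = 1.01e-08).

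Of 11 other substrates, all 11 were tested, with 3 higher and 2 lower at 3 d, 4 higher and 1 lower at 6 d, and 4 higher and 0 lower at 9 d, and medians of -0.16, -0.01 and 0.69. NID2 (nidogen, cut by ADAMTS1) was at 369, 370.3 and 365 FPKM at 0 d and 3225, 3748 and 3608 at 3 d, with every 3 d library above every library of another day, and rose at 3 d (3.26 ± 0.059, adjusted p = 9.4e-11), 6 d (2.40 ± 0.059, adjusted p = 3.5e-09) and 9 d (1.29 ± 0.059, adjusted p = 1.99e-07). THBS1, also cut by ADAMTS1, fell at 3 d (-1.87 ± 0.058, adjusted p = 2.83e-09) and rose at 6 d (1.89 ± 0.058, adjusted p = 1.31e-08), with means of 3823, 1049.5, 14200.5 and 12769 FPKM. The small proteoglycan genes parted, since FMOD fell at 3 d (-2.73 ± 0.066, adjusted p = 5.42e-10) and DCN rose at 3 d (2.09 ± 0.043, adjusted p = 1.9e-10). COMP, the substrate that gives ADAMTS7 and ADAMTS12 their place here, was scarce, with day means of 0.163 to 0.25 FPKM and no call.

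Of 14 genes for inhibitors, clearance, activation and modification of ADAMTS proteases, 13 were tested, with 2 higher and 2 lower at 3 d, 1 higher and 3 lower at 6 d, and 4 higher and 3 lower at 9 d, and medians of 0.32, 0.26 and 0.25. B3GLCT was not analysed here. TIMP3, the tissue inhibitor that blocks ADAMTS4 and ADAMTS5, was at 138, 105 and 137 FPKM at 0 d and 2.87, 2.48 and 2.41 at 3 d. At 6 d it was 77.7, 29.2 and 89.2 and at 9 d 59.2, 46.1 and 52.7. All 3 d libraries lay far below the other 9, every library of 6 d and 9 d lay below every 0 d library, and 6 d replicate 2 was well below the other 2 libraries of its day. The log2 fold change was -5.55 ± 0.35 (adjusted p = 4.49e-07) at 3 d, -1.09 ± 0.35 (adjusted p = 0.0338) at 6 d and -1.26 ± 0.35 (adjusted p = 0.0172) at 9 d. The call at 6 d ended without 0 d replicate 1 (-1.03, adjusted p = 0.0938), 0 d replicate 3 (-1.03, 0.0873) or 6 d replicate 2 (-0.59, 0.0184). It ended as well on rescaled values (-0.92) and with the 6 libraries compared alone, and its adjusted p was 0.0137 to 0.12 over its 13 alternatives. The call at 9 d ended without 0 d replicate 1 (-1.19, adjusted p = 0.0542), 0 d replicate 3 (-1.20, 0.0512) or 9 d replicate 2 (-1.17, 0.0578). The adjusted p at 9 d was 0.00228 to 0.0578 over its 13 alternatives. The call at 3 d held under every alternative tried. So the libraries with the highest ADAMTS4 and ADAMTS5 had the lowest TIMP3, and what this does to protease activity was not measured. A2M, a general protease inhibitor, rose from 0.27, 0.76 and 0.6 FPKM at 0 d to 7.12, 7.26 and 7.13 at 3 d (3.58 ± 0.24, adjusted p = 8.47e-07) and stayed up at 9 d (3.99 ± 0.24, adjusted p = 1.41e-06). Among the convertases, PCSK5 rose at 3 d (1.97 ± 0.27, adjusted p = 0.000155) and PCSK6 fell (-2.23 ± 0.11, adjusted p = 9.67e-08).

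**Figure D5:**
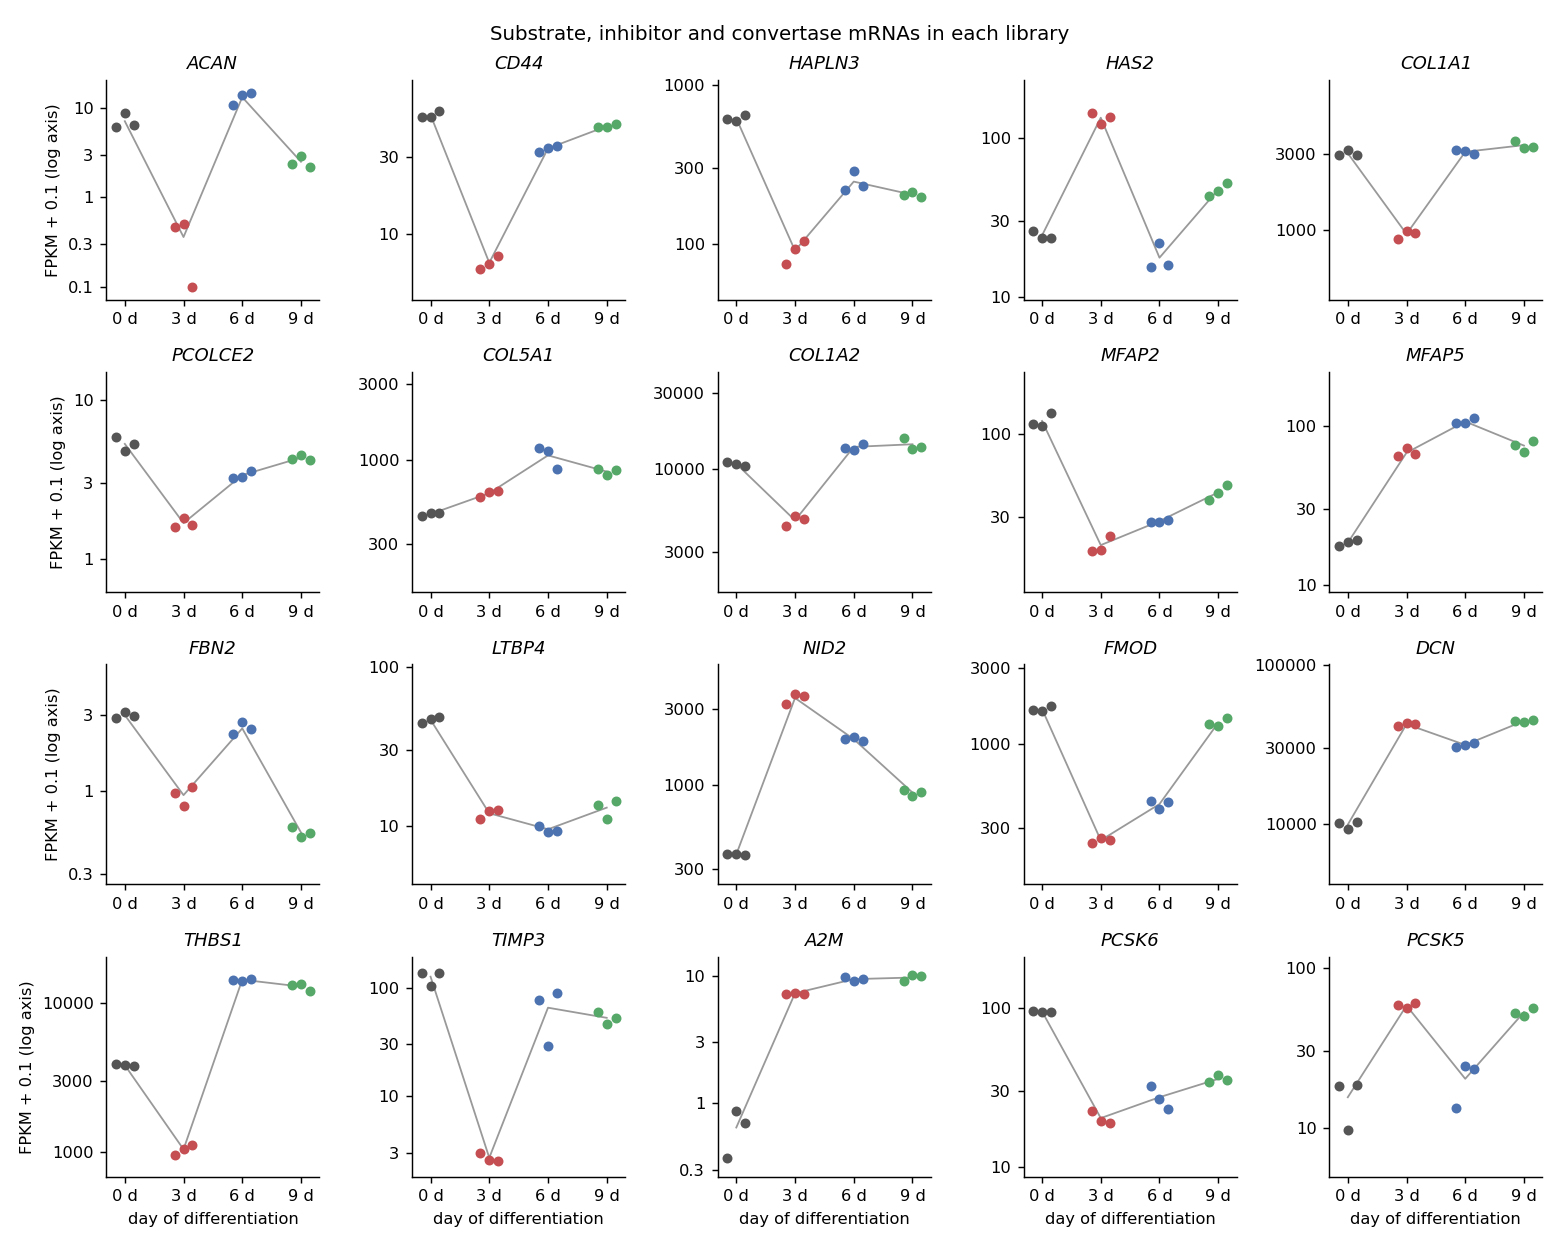
FPKM + 0.1 in each library for the 20 genes named by the rule given below from the 5 lists of substrates, inhibitors and convertases. Each panel has a log axis with a range of its own, points are libraries, and lines join means of the 3 libraries of a day. TIMP3, ACAN and CD44 are lowest at 3 d, HAS2 and NID2 are highest there, and A2M and MFAP5 stay above 0 d.

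The circRNA table names members as host genes in 33 of its 14070 entries, with 170 of 95674 back-spliced reads, and these counts were not tested. The total over all circRNAs was 5358 to 10729 reads per library. ADAMTS5 had 7 circRNAs and 80 reads, 14 at 0 d and 38 at 3 d, then 9 at 6 d and 19 at 9 d. The most abundant, circRNA1624, spans 2 exons on the plus strand of chromosome 1 from 9455338 to 9468029 in ARS-UCD1.2, and had 8, 3 and 2 reads at 0 d against 6, 9 and 11 at 3 d. It had 0, 1 and 3 at 6 d, against 2, 4 and 6 at 9 d. It was found in 11 of the 12 libraries, and its counts at 0 d, 3 d and 9 d overlapped. ADAMTS6 had 14 circRNAs and 50 reads, 12 at 0 d and 17 at 3 d, then 7 at 6 d and 14 at 9 d, although the ADAMTS6 mRNA was lowest at 3 d. ADAMTS9 had 6 circRNAs and 28 reads, 4 at 0 d and 16 at 3 d, then 0 at 6 d and 8 at 9 d, so none was counted at 6 d, where the ADAMTS9 mRNA was still high. ADAMTS10 had 1 circRNA with 6 reads, all in a single 6 d library, ADAMTS2 had 4 with 5 reads and ADAMTS7 1 with 1 read. Of those named for ADAMTS2, circRNA11771, with 2 reads, is listed on the minus strand and the others on the plus strand. No circRNA was listed for ADAMTS1, ADAMTS4, ADAMTS12 or ADAMTS15, ADAMTS4 being the member with the highest mRNA at 3 d.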

How the data were processed

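The authors sequenced paired ends and deposited the mRNA table as FPKM, from reads mapped to ARS-UCD1.2 with HISAT2 and quantified with StringTie 1.3.0. The labels also list a mouse build (mm8), and they describe poly(A) selection where the methods describe rRNA depletion. The deposited circRNA table holds counts of back-spliced reads called with CIRCExplorer2 and CIRI, and the lncRNA and miRNA tables were not used here. FPKM are not counts and the table holds no read depth per library, so limma stood in for the study's edgeR, which needs counts.

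limma 3.58.1 in R 4.3.3 (eBayes with a trend after lmFit and contrasts.fit) was fitted to log2(FPKM + 0.1) of the 15402 mRNAs with a mean of at least 0.1 FPKM, with 1 mean per day over all 12 libraries and Benjamini-Hochberg adjustment. The fit was tested on simulated data. The pseudocount makes the fold changes of scarce mRNAs smaller than the ratio of their means. Genes were named by a rule: all members and related ADAMTS genes, up to 4 called genes of each other list with the largest change from 0 d, and the 3 mRNAs most like each of 4 members. COMP, HAS1, FBN1, COL3A1, COL5A2, TIMP2, FURIN, PCSK7 and the genes named from the cell type marker lists lie outside it and were chosen after their values were seen. The members and lists were chosen with earlier results of these data known. Alternatives were pseudocounts of 1 and 0.01, no filter, a mean of at least 1 FPKM, rescaling by median ratios, the 6 libraries compared alone, a replicate block, and each library left out. Tables and figures used Python 3.11.15, pandas 2.3.3, NumPy 2.4.6 and Matplotlib 3.10.9.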

Additional observations from a re-analysis of the deposited data

How the results depend on the processing

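Of 650 log2 fold changes of members recomputed under the alternatives, 626 kept their direction and their side of the thresholds, 9 lost their call, 5 gained one and 10 changed sign, all of these 10 in differences that were not called. For the calls against 0 d of the genes named from the other family, substrate and inhibitor lists, 755 of 779 recomputed values stayed called in the same direction. For calls of 14 marker genes (FABP4, LEP, ADIPOQ, PLIN4, ACTA2, CNN1, DES, NOTCH3, SOX9, CD14, CSF1R, PDGFRA, THY1 and LUM) against 0 d, and of ACTA2 and CNN1 at 9 d against 6 d, 391 of 409 did. Rescaling raised the members called at 9 d against 0 d from 2 to 5, and the cause was not tested. Rescaling also turned the log2 fold change of ADAMTS6 (0.15) and ADAMTS7 (0.16) at 9 d against 0 d and of ADAMTS9 (0.079) at 6 d against 3 d. With each library left out in turn, the members called against 0 d stayed at 8 for 3 d, while they numbered 5 to 6 for 6 d and 2 to 3 for 9 d. In the same way, 7 to 8 were called at 6 d against 3 d and 1 to 2 at 9 d against 6 d. Over these fits the log2 fold change at 9 d against 0 d ran from -0.12 to 0.037 for ADAMTS6 and from -0.0087 to 0.15 for ADAMTS15. It ran from -0.19 to 0.15 for ADAMTS9 at 6 d against 3 d, and from -0.045 to 0.059 for ADAMTS10 at 9 d against 6 d. Over all mRNAs, a pseudocount of 1 lowered the number called against 0 d from 3585 to 2184 (3 d), from 1749 to 967 (6 d) and from 1675 to 888 (9 d). It lowered that between 3 d and 6 d from 2939 to 1688 and that between 6 d and 9 d from 683 to 368. With a mean of at least 1 FPKM, 11331 mRNAs were tested and fewer were called in every comparison. The number against 0 d was 2563 (3 d), 1169 (6 d) and 1114 (9 d). It was 2141 at 6 d against 3 d and 475 at 9 d against 6 d. Of those tested, 22.6% (3 d), 10.3% (6 d) and 9.83% (9 d) were called against 0 d. In the main fit these shares were 23.3%, 11.4% and 10.9%. Rescaling moved the share of calls that were higher from 29.8% (522 of 1749) to 40.6% (647 of 1592) at 6 d against 0 d, and from 31.3% (525 of 1675) to 46.6% (685 of 1469) at 9 d.

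The correlation of the libraries' deviations from the day means gave no clear pairing by replicate number. It ran from -0.0981 to 0.112 (median 0.022) over 18 pairs with the same number. Over 36 pairs with different numbers it ran from -0.19 to 0.183 (median -0.0108). With the replicate number as a block, members called against 0 d were again 8 (3 d), 6 (6 d) and 2 (9 d), with 8 at 6 d against 3 d and 2 at 9 d against 6 d. The table holds no counts, so counting error at low FPKM was not computed, and precision there is read from the spread of 3 libraries.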
